A study of Mus musculus with 8 samples.

Results

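NF-kB signalling and inflammatory cytokine genes were examined in isolated mouse glomeruli, as a list of 35 named genes: the NF-kB subunits, their inhibitors, the kinases and adaptors that activate them, and the cytokines and other genes that they induce. The list was chosen with earlier results of these data known, so its counts beside those of all genes are a description and no independent test. Of the 35 listed genes, 31 were measured among the 22180 genes of the arrays. Each of these 31 had a single probe set that named only that gene, and no probe set of that kind was annotated to Nfkb1, Chuk, Traf3 or Ripk2, which are not analysed here.

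All mice were 13 weeks old and had received doxycycline for 3 weeks from an age of 8 weeks. The series describes the injured mice as proteinuric. In 3 arrays the mice carried the genotype Tln1 Pod-rtTA TetO-Cre and were then given valproic acid (VPA), a drug that inhibits histone deacetylases, for 2 weeks (Tln1 VPA). In 3 arrays mice of the same genotype were given vehicle (Tln1 vehicle). The remaining 2 arrays came from mice labelled control (control), whose alleles and vehicle treatment the labels do not state. By its name, the line carries a doxycycline-dependent Cre driven in podocytes, the epithelial cells of the filtration barrier, and aimed at Tln1. That gene encodes talin 1, which links integrins to actin. An isolate of whole glomeruli also holds endothelial, mesangial and immune cells and pieces of tubule, so podocytes supply only a part of the RNA.

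NF-kB is a family of paired transcription factors that wait in the cytoplasm, bound to inhibitor proteins called IkB. Signals from tumour necrosis factor (TNF), interleukin 1 and Toll-like receptors reach the IkB kinase complex through adaptor proteins, IkB is destroyed, and the freed factors enter the nucleus. Among the genes they switch on are their own inhibitors, so that several negative regulators of the pathway also serve as a readout of it. In the kidney the pathway is known for inducing adhesion molecules, chemokines and cytokines in injured glomerular and tubular cells and in infiltrating macrophages.

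The DNA that NF-kB binds, the kB site, follows a loose consensus, here taken as GGGRNWYYCC. In it R is A or G, Y is C or T, W is A or T and N is any base. This consensus was searched on both strands in the RefSeq promoters of these genes (GRCm38.p6, 250 bases before to 50 bases after each gene's start). A gene with several promoters counted as matched if any of them held a match. Promoters were on hand for 27 of the 31 measured members, and 9 of the 27 held at least 1 match, a share of 33.3%. Among all genes tested on the arrays that had a promoter in the same table, the share was 5.54% (941 of 16990). Such a match is a description of the letters in this window and does not show that the site is bound. The 9 were Nfkb2, Rel, Nfkbia, Nfkbie, Bcl3, Tnfaip3, Tnip1, Csf1 and Il6, so that 7 of them encode subunits, IkB proteins or feedback inhibitors of the pathway itself. For 5 of these, 1 promoter each is shown because the results below turn on NF-kB subunits and on the feedback inhibitors. Nfkb2 and Tnfaip3 had further promoters, which are not shown. Those of Nfkb2 also held matches and that of Tnfaip3 held none. The capitals mark the matches, some of which overlap each other:
Nfkb2 (chr19:46304487-46304786, plus strand): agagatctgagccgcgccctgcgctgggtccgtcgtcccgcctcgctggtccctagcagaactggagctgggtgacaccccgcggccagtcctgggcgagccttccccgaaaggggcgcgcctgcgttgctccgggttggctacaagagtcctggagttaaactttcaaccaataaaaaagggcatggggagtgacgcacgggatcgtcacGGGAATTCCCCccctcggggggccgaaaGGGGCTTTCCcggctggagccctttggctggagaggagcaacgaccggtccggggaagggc
Bcl3 (chr7:19822706-19823005, minus strand): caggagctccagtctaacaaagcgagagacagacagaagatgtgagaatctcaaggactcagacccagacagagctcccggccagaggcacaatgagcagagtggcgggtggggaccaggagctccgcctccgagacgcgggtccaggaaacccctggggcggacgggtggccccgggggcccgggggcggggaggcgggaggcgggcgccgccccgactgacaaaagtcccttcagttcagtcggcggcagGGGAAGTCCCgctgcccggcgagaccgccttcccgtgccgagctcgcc
Nfkbia (chr12:55492598-55492897, minus strand): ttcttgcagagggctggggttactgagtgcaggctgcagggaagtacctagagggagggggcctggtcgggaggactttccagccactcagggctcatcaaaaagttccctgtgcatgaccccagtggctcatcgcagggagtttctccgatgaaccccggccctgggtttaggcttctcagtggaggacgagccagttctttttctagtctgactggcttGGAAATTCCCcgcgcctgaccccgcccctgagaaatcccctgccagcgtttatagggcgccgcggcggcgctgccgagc
Tnfaip3 (chr10:19015361-19015660, minus strand): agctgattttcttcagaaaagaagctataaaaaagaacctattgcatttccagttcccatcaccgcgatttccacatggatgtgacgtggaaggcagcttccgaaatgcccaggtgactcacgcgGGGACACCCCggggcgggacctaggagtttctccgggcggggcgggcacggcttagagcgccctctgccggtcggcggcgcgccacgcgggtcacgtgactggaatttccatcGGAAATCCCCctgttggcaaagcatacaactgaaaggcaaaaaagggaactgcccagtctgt
Tnip1 (chr11:54962891-54963190, minus strand): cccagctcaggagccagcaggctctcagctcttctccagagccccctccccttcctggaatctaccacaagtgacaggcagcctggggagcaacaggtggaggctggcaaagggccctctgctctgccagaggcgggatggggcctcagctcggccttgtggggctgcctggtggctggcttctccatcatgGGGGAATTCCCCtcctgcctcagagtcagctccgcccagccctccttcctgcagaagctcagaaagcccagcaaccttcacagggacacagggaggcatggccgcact

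The arrays also split by their overall correlation into 2 sets that cut across the 3 groups, which bears on every value below. The first set held VPA 1 and 2, vehicle 1 and 2 and control 1, and the second held VPA 3, vehicle 3 and control 2. Across genes, arrays of one set correlated at 0.990 or more and arrays of different sets at 0.966 to 0.979. Podocyte markers were present on all arrays (all 7 measured above the median gene mean), with a mean level of 7.02 to 7.78 on first-set and 8.45 to 9.07 on second-set arrays, while proximal tubule markers stood at 11.72 to 12.12 and 10.72 to 11.17. The mean of 3 Y-linked genes was 4.85 and 5.83 on VPA 1 and 2, 5.77 and 7.00 on vehicle 1 and 2, 3.57 on control 1 and 2.56 to 2.72 in the second set. Kap, 1 of the 9 tubule markers, ran broadly with that mean and widened the tubule gap. It was 11.58 and 12.40 on VPA 1 and 2, 12.59 and 12.91 on vehicle 1 and 2, 9.63 on control 1 and 7.70 to 8.90 in the second set. The median tubule marker, which rests less on Kap, was 11.83 to 12.41 on first-set and 10.47 to 11.25 on second-set arrays. Changes are therefore given over all arrays and within each set, and the second set holds a single array of each group. Tln1 itself averaged 8.74 ± 0.14 (SD, n = 3) on VPA, 8.83 ± 0.20 (n = 3) on vehicle and 8.80 ± 0.23 (n = 2) on control arrays. Its level checks no label, since podocytes are a part of the isolate and the position of its probe set is not given.

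Levels are log2 values made by RMA (the robust multi-array average), so a difference of 1 is a doubling. Taken over the 31 members, the mean level was 6.23, 6.19 and 6.29 on the Tln1 VPA arrays, 6.07, 5.96 and 6.21 on the Tln1 vehicle arrays and 5.99 and 5.93 on the control arrays. The VPA arrays lay above the control arrays and overlapped slightly with vehicle 3. For 16 of the 31 members (51.6%) the group means ran in the order VPA above vehicle above control, an order that 23.0% of all genes showed, and for 2 members they ran the opposite way, against 16.0% of all genes. No single member passed the test over all genes in any comparison.

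**Figure D1:**
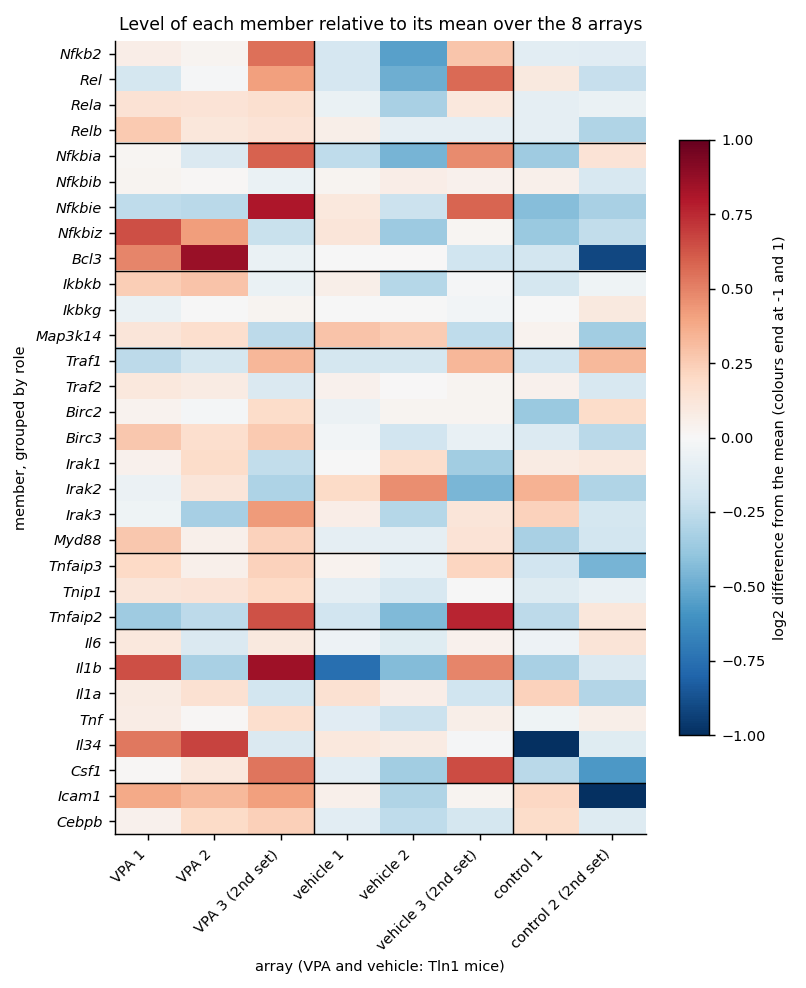
Level of each of the 31 members (rows, grouped by role) on each of the 8 arrays (columns), as the log2 difference from that member's mean over the arrays. The 3 VPA columns hold the highest values for Birc3, Tnip1 and Icam1, while Nfkbia, Nfkbie and Tnfaip2 are high on VPA 3 and vehicle 3, arrays of the second set.

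The widest contrast was Tln1 VPA against control, which combines the genotype with the drug. Of the 31 members 25 were higher and 6 lower, with a median log2 change of 0.22, against 0.02 over all genes, of which 56.8% were higher and 43.2% lower. For 12 members (38.7%) every VPA array lay above both control arrays, which held for 5.57% of all genes, and for no member did every VPA array lie below both, against 3.98% of all genes. These 12 were the subunits Nfkb2, Rela and Relb, the IkB family members Nfkbie, Nfkbiz and Bcl3, the adaptors Birc3 and Myd88, the feedback inhibitors Tnfaip3 and Tnip1, the cytokine Csf1 and the adhesion molecule Icam1. Within the first set 22 of 31 were higher (71.0%, against 47.8% of all genes) and within the second 24 (77.4%, against 44.3%), and 17 were higher and 2 lower in both, against 22.4% and 22.9% of all genes. Within the second set, which compares single arrays, the median change of all genes was 0 in each comparison. The genes that were not higher there thus include ties and not only lower genes. Over the first set alone, 19 members had both VPA arrays above control 1 and 5 had both below it, against 32.1% and 34.3% of all genes.

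None of the 31 passed in the limma test after adjustment over all genes (adjusted p = 1.00 for each), and 0 of 22180 genes did (0%). With the replicate number as a block, 0 members passed and 0.00451% of all genes did. At an unadjusted p below 0.05, 7 members were higher and 0 lower, against 1.23% and 0.64% of all genes. When the fit included the array set as a block, 11 were higher and 0 lower, against 4.06% and 4.06%. Separate animals per array are not stated in the labels, so that the p values measure array-to-array spread alone, and that spread may in part be technical. Without the set as a block it also holds the difference between the array sets, whose podocyte, tubule and Y-linked levels differed.

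**Figure D2:**
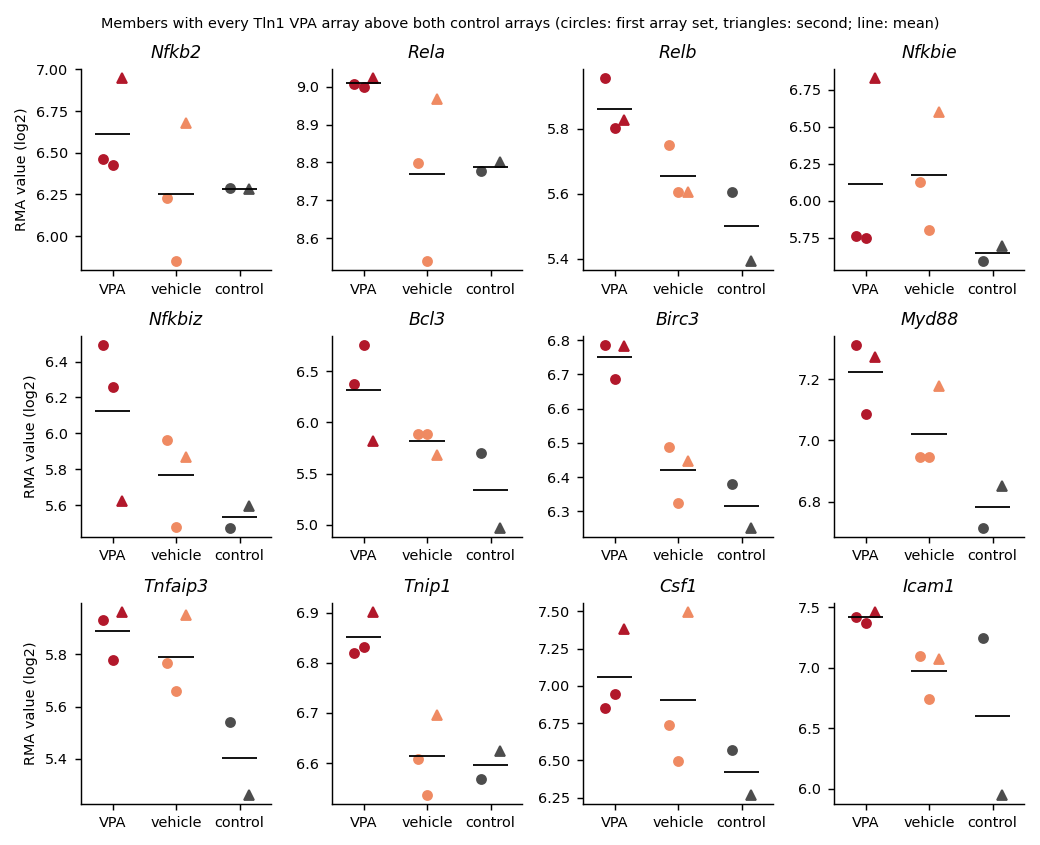
RMA values (log2, vertical axis) on every array for the 12 members whose 3 Tln1 VPA arrays all lie above both control arrays, with the group means as lines. Circles are arrays of the first set and triangles arrays of the second, and the vertical axes differ between panels and do not start at 0.

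Among the subunits, Relb, the partner of p52 in the slower, noncanonical branch, stood at 5.95, 5.80 and 5.83 on VPA arrays, 5.75, 5.61 and 5.60 on vehicle arrays and 5.61 and 5.39 on control arrays. The VPA arrays were above all others. The change from control was 0.36 (SE 0.13, adjusted p = 1.00 by limma), with 0.27 in the first array set and 0.43 in the other. Nfkb2, which encodes the precursor of p52, was at 6.46, 6.42 and 6.95 on VPA arrays, 6.23, 5.85 and 6.68 on vehicle arrays and 6.29 and 6.28 on control arrays. Its VPA arrays overlapped the vehicle arrays through vehicle 3 but not the control arrays. Rela, the main activating subunit of the canonical branch, was at 9.0078, 8.9994 and 9.0219 on VPA arrays, 8.80, 8.54 and 8.97 on vehicle arrays and 8.78 and 8.80 on control arrays. Its 3 VPA values lay within a narrow band above every other array, though vehicle 3 came within a few hundredths of them. Rel, the subunit prominent in lymphoid and myeloid cells, overlapped between all groups, with means of 5.68 ± 0.30, 5.57 ± 0.54 and 5.53 ± 0.23 (SD, n = 3, 3 and 2) on VPA, vehicle and control arrays.

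All 5 measured members of the IkB family had higher means on VPA than on control arrays, by 0.04 to 0.98. Bcl3, an unusual IkB protein that works in the nucleus as a partner of p50 and p52, had the largest difference of all members. It stood at 6.38, 6.75 and 5.82 on VPA arrays, 5.88, 5.89 and 5.68 on vehicle arrays and 5.71 and 4.97 on control arrays. All VPA arrays were above both control arrays, but VPA 3 lay below vehicle 1 and 2. Its change from control was 0.98 (SE 0.30, adjusted p = 1.00 by limma), close to 0.86 within the first set, and 0.84 within the second. That change was 1.34 without control 1 and 0.61 without control 2. Nfkbiz, the inducible nuclear protein IkB-zeta, which in macrophages is needed for a set of secondary response genes, was at 6.49, 6.26 and 5.63 on VPA arrays, 5.96, 5.48 and 5.87 on vehicle arrays and 5.48 and 5.60 on control arrays. Its difference from control was 0.90 in the first array set and 0.03 in the other, where VPA 3 was barely above control 2.

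Nfkbia, which encodes IkB-alpha, stood at 8.12, 7.95 and 8.69 on VPA arrays, 7.85, 7.64 and 8.57 on vehicle arrays and 7.74 and 8.24 on control arrays. The 3 groups overlapped, and the arrays of the second set were the highest of each group. Its change from control was 0.26 (95% interval -0.51 to 1.03) over all arrays, 0.30 within the first set, and 0.45 within the second, and it was 0.05 without VPA 3, 0.01 without control 1 and 0.51 without control 2. Nfkbie, which encodes IkB-epsilon, was at 5.76, 5.75 and 6.83 on VPA arrays, 6.13, 5.80 and 6.60 on vehicle arrays and 5.60 and 5.70 on control arrays. Every array of the Tln1 line was above both control arrays, with little to choose between VPA and vehicle. Nfkbib, which encodes IkB-beta, varied little, with means of 7.14 ± 0.05, 7.19 ± 0.02 and 7.09 ± 0.15 on VPA, vehicle and control arrays.

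Tnfaip3 encodes A20, a ubiquitin-editing enzyme that shuts off signalling from TNF and Toll-like receptors, and Tnip1 encodes a ubiquitin-binding partner of A20. Tnfaip3 stood at 5.93, 5.78 and 5.96 on VPA arrays, 5.77, 5.66 and 5.95 on vehicle arrays and 5.54 and 5.26 on control arrays. All 6 arrays of the Tln1 line were above both control arrays. The VPA change from control was 0.49 (SE 0.15, adjusted p = 1.00 by limma), with 0.32 in the first array set and 0.70 in the other. Tnip1 was at 6.82, 6.83 and 6.90 on VPA arrays, 6.61, 6.54 and 6.70 on vehicle arrays and 6.57 and 6.62 on control arrays. Only its VPA arrays stood apart, by 0.25 (SE 0.11) from control, with 0.26 and 0.28 within the sets. Tnfaip2, a TNF-induced gene of endothelial and myeloid cells, overlapped between the groups (7.99 ± 0.55, 8.02 ± 0.63 and 7.91 ± 0.27 on VPA, vehicle and control arrays). It was 0.80 higher in the second array set than in the first, the widest gap of all members.

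Of the kinases, Ikbkb, the catalytic subunit that phosphorylates IkB in the canonical branch, averaged 8.47 ± 0.19 on VPA, 8.24 ± 0.18 on vehicle and 8.21 ± 0.10 on control arrays, with overlap. Ikbkg, the regulatory subunit NEMO, averaged 6.16 ± 0.05, 6.16 ± 0.01 and 6.22 ± 0.08 on the same groups, with the change from control bounded by a 95% interval of -0.32 to 0.19. Map3k14 (NIK, the kinase that starts the noncanonical branch) averaged 4.72 ± 0.23, 4.80 ± 0.30 and 4.55 ± 0.27. The kinases thus gave no member whose groups stood apart.

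The adaptors split into 2 that stood apart and 6 that did not. Birc3, which encodes the ubiquitin ligase cIAP2 of the TNF receptor complex and is itself an NF-kB target, stood at 6.78, 6.69 and 6.78 on VPA arrays, 6.49, 6.32 and 6.45 on vehicle arrays and 6.38 and 6.25 on control arrays. The VPA arrays were above all 5 others. The change from control was 0.44 (SE 0.12, unadjusted p = 0.00646 and adjusted p = 1.00 by limma), with 0.36 within the first set, and 0.53 within the second, and this was the smallest unadjusted p of any member in that comparison. Myd88, the adaptor of interleukin 1 and most Toll-like receptors, was at 7.31, 7.09 and 7.27 on VPA arrays, 6.94, 6.94 and 7.18 on vehicle arrays and 6.72 and 6.85 on control arrays. All 6 arrays of the Tln1 line were above both control arrays, and the VPA change from control was 0.44 (SE 0.14), with 0.48 and 0.42 within the sets. The other adaptors were Birc2 (cIAP1), Traf1 and Traf2, which assemble TNF receptor complexes, the kinases Irak1 and Irak2 and the inhibitory Irak3 of the interleukin 1 pathway. Their VPA changes from control ran from -0.11 for Irak2 to 0.16 for Birc2, all smaller than 1.5 times their standard errors, and their groups overlapped.

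Among the cytokines the 2 ligands of the macrophage receptor Csf1r had the higher values in the Tln1 line. Csf1 (macrophage colony-stimulating factor) stood at 6.85, 6.95 and 7.38 on VPA arrays, 6.74, 6.49 and 7.49 on vehicle arrays and 6.57 and 6.27 on control arrays. The VPA arrays were above both control arrays by 0.64 on average (SE 0.30), with 0.33 in the first array set and 1.11 in the other. Il34, the other ligand, was at 6.36, 6.51 and 5.69 on VPA arrays, 5.95, 5.92 and 5.82 on vehicle arrays and 4.73 and 5.72 on control arrays. Its VPA change from control, 0.96 (SE 0.33, adjusted p = 1.00 by limma), was 1.70 within the first set, and -0.02 within the second. It was 0.47 without control 1, the lowest array, and 1.46 without control 2. Csf1r itself averaged 5.77 ± 0.54 on VPA, 5.60 ± 0.42 on vehicle and 5.89 ± 0.07 on control arrays, with overlap.

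The classical inflammatory cytokines were dim and did not stand apart. Il1b (interleukin 1 beta) was at 5.01, 4.04 and 5.21 on VPA arrays, 3.61, 3.93 and 4.85 on vehicle arrays and 4.04 and 4.22 on control arrays. Its spread within the VPA and vehicle groups was as wide as the difference of 0.62 (SE 0.43) between VPA and control. Il6, Il1a and Tnf differed by -0.02, 0.05 and 0.08 between VPA and control, with 95% intervals of -0.33 to 0.29, -0.42 to 0.52 and -0.22 to 0.38. For these 4 cytokines, and for Map3k14, Traf1 and Irak3, the mean level lay below that of the median gene (4.92), where a change is hard to see.

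Icam1 and Cebpb complete the list. Icam1, the leukocyte adhesion molecule of endothelium and injured epithelium, stood at 7.42, 7.37 and 7.46 on VPA arrays, 7.09, 6.74 and 7.07 on vehicle arrays and 7.25 and 5.95 on control arrays. The VPA arrays were above all others, but control 2 was far below control 1, and the VPA change from control was 0.15 in the first array set and 1.51 in the other. Cebpb, a transcription factor of the acute phase response, is given with the drug comparison.

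**Figure D3:**
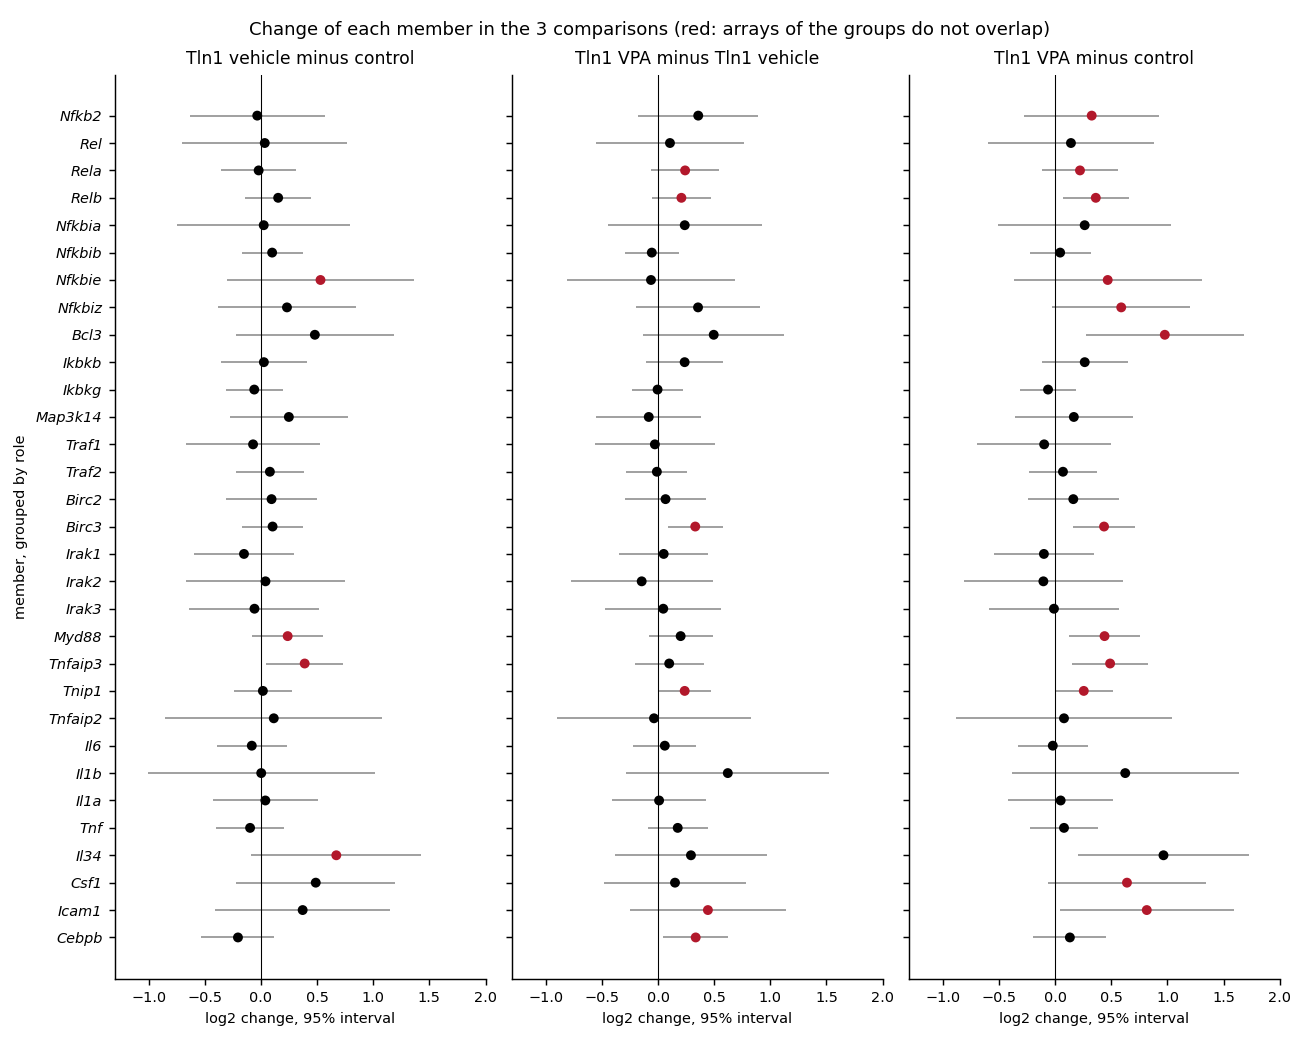
Log2 change of each member (horizontal axis, with its 95% interval from the limma fit) in the 3 comparisons, with members grouped by role on the vertical axis. Red points mark members with no overlap of the arrays of both groups: 4 for Tln1 vehicle against control, 6 for Tln1 VPA against Tln1 vehicle and 12 for Tln1 VPA against control, all of them higher.

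Tln1 VPA against Tln1 vehicle compares the drug with its vehicle within one genotype. Of the 31 members 23 were higher and 8 lower, with a median log2 change of 0.15, against 0.00 over all genes, of which 51.3% were higher and 48.5% lower. For 6 members (19.4%) every VPA array lay above every vehicle array, against 1.98% of all genes, and for no member was every VPA array lower, against 1.57%. These 6 were Birc3, Cebpb, Tnip1, Rela, Relb and Icam1. Both array sets gave this direction, with 24 of 31 members higher in the first (77.4%, against 51.5% of all genes) and 21 in the second (67.7%, against 44.2%, the rest including ties). In both sets 17 were higher and 2 lower, against 22.4% and 20.4%. With the first set alone, 18 members had both VPA arrays above both vehicle arrays and 3 had both below, against 18% and 16.2% of all genes.

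Birc3 again had the smallest unadjusted p of the members, with a change of 0.33 (SE 0.10, unadjusted p = 0.0142 and adjusted p = 1.00 by limma) and nearly equal values of 0.33 and 0.33 in the 2 sets. Cebpb followed, at 5.29, 5.44 and 5.48 on VPA arrays, 5.14, 4.99 and 5.07 on vehicle arrays and 5.43 and 5.12 on control arrays. Its VPA arrays were above the vehicle arrays by 0.34 (SE 0.13, adjusted p = 1.00), with 0.30 and 0.41 within the sets, but not above control. Tnip1 differed by 0.24 (SE 0.10), with 0.25 and 0.21 within the sets. Relb differed by 0.21 (SE 0.11), with 0.20 and 0.22 within the sets. Rela differed by 0.24 (SE 0.13), with 0.33 and 0.05 within the sets, and its change was 0.13 without vehicle 2, the lowest array.

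Several members with larger changes overlapped between VPA and vehicle. Il1b differed by 0.62 (SE 0.39), Bcl3 by 0.50 (SE 0.27), Icam1 by 0.44 (SE 0.30), Nfkb2 by 0.36 (SE 0.23) and Nfkbiz by 0.36 (SE 0.24), of which only Icam1 did not overlap. The Bcl3 change was 0.68 within the first set, and 0.13 within the second, and it was 0.28 without VPA 2 and 0.74 without VPA 3. Nfkbia and Tnfaip3 differed by 0.24 (SE 0.30) and 0.10 (SE 0.13), with 95% intervals of -0.45 to 0.92 and -0.21 to 0.41. The Tnfaip3 change was 0.03 without vehicle 2, 0.06 without VPA 3, 0.15 without VPA 2 and 0.18 without vehicle 3. The Nfkbia change was 0.02 without VPA 3, 0.05 without vehicle 2 and 0.51 without vehicle 3. The 8 members with lower means, among them Irak2, Map3k14 and Nfkbie, lay between -0.15 and -0.00 with overlapping arrays.

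No member and none of the 22180 genes (0%) passed over all genes by limma. At an unadjusted p below 0.05 there were 3 members higher and 0 lower, against 0.834% and 0.428% of all genes. In the fit with the array set as a block, 9 were higher and 0 lower, against 3.32% and 2.11%, and the smallest adjusted p of a member was 0.800.

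Tln1 vehicle against control addressed the genotype without the drug, and over all arrays the median of the members lay close to that of all genes. Of the 31 members 22 were higher and 9 lower, with a median log2 change of 0.04, against 0.02 over all genes, of which 55.6% were higher and 44.4% lower. With the array set as a block the members' median was 0.10, against -0.005 over all genes. It was 0 within the first set (-0.007 over all genes) and 0.20 within the second (0 over all genes). For 4 members (12.9%), Tnfaip3, Il34, Myd88 and Nfkbie, every vehicle array lay above both control arrays, against 4.78% of all genes, and for no member was every vehicle array lower, against 3.59% (1 member after median centring or quantile normalization). Within the first set 15 members were higher and 15 lower, with Ikbkg equal to within 0.0001. Within the second set 24 were higher (77.4%, against 45.4% of all genes), and 13 were higher and 3 lower in both, against 20.8% and 22.5% of all genes. With the first set alone 9 members (29.0%) had both vehicle arrays above control 1 and 9 had both below it, against 31.5% and 36.2% of all genes.

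Tnfaip3 was the 1 member with an unadjusted p below 0.05, against 0.78% of all genes that were higher at that p. Its change was 0.39 (SE 0.15, unadjusted p = 0.0304 and adjusted p = 1.00 by limma), with 0.17 in the first array set and 0.69 in the other, and 0.25 without control 2. Il34 had the largest change, 0.67 (SE 0.33), which was 1.20 within the first set, and 0.11 within the second, and 0.18 without control 1 and 1.16 without control 2. Myd88 differed by 0.24 (SE 0.14), with 0.23 and 0.32 within the sets. Nfkbie differed by 0.53 (SE 0.36), with 0.37 and 0.90 within the sets and 0.32 without vehicle 3. Csf1 and Bcl3 differed by 0.49 (SE 0.30) and 0.48 (SE 0.30) with overlapping arrays, and they were at 0.05 and 0.18 in the first set and 1.22 and 0.71 in the second. Without vehicle 3 the change of Csf1 was 0.20, and that of Bcl3 was 0.11 without control 2 and 0.85 without control 1. Nfkbia was at 0.03 (SE 0.33), and its sign turned when arrays were left out. No gene passed over all genes by limma (0 of 22180, or 0%), nor with array set as a block in the fit (0%). The blocked fit gave 3 members with an unadjusted p below 0.05 that were higher and 0 that were lower, against 3.01% and 4.3% of all genes. With the replicate number as a block 0 members passed, and 0.018% of all genes did.

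**Figure D4:**
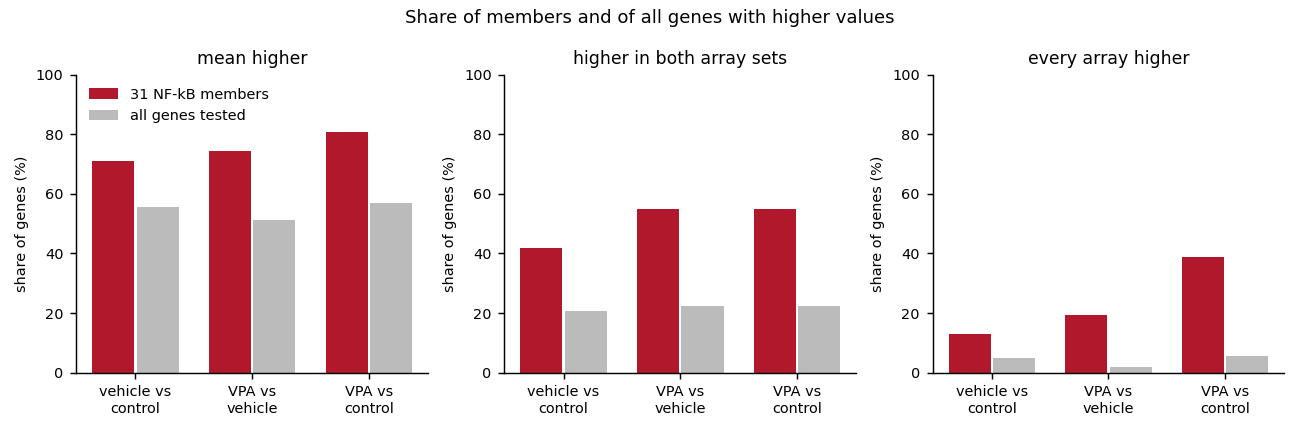
Share of the 31 NF-kB members (red) and of all 22180 genes tested (grey), in percent, that had a higher group mean, a higher value within both array sets, or every array above every array of the other group, for each of the 3 comparisons. The members' share exceeds that of all genes in each pair of bars, as for every VPA array above both control arrays (38.7% against 5.57%).

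The comparisons share arrays: VPA and vehicle were both set against the same 2 control arrays, and vehicle arrays served in both the drug and the genotype comparison. Set side by side, Bcl3 was 0.98 above control with VPA and 0.48 above it with vehicle. Tnfaip3 was 0.49 above control with VPA and 0.39 with vehicle, Myd88 0.44 and 0.24, and Birc3 0.44 and 0.10. Rela and Nfkb2 were 0.22 and 0.33 above control with VPA, and -0.02 and -0.03 from it with vehicle. Those vehicle values joined opposite signs, at -0.11 and 0.17 for Rela and -0.25 and 0.39 for Nfkb2 within the first and the second set.

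Members whose promoters held the kB consensus can be set beside those that did not. Between VPA and control the 9 with a match had a median change of 0.33 and a range of -0.02 to 0.98, and for 6 of them every VPA array was above both control arrays (5.57% of all genes). The 18 without a match had a median of 0.08, a range of -0.11 to 0.82, and 4 such members. Between VPA and vehicle the medians were 0.15 with a match and 0.05 without, and between vehicle and control 0.03 and 0.04. Every VPA array lay above every vehicle array for 1 of the 9 with a match and 4 of the 18 without (1.98% of all genes). Every vehicle array lay above both control arrays for 2 of the 9 and 1 of the 18 (4.78% of all genes). The 5 promoters printed above thus belong to genes that differed among themselves, since Nfkbia overlapped between VPA and control while Bcl3, Tnfaip3, Tnip1 and Nfkb2 did not. Birc3 and Icam1, which also stood apart, had no match to these letters in this window. Relb, Nfkbiz, Ikbkb and Il34 had no promoter on hand and fall in neither group, though Relb and Nfkbiz also stood apart from control. All other genes on the arrays were not split in this way, and a part of the matches in these changes was not tested.

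Genes of the same pathway outside the list follow by role, targets first. These lists were also chosen with earlier results of these data known, so they are no independent check on the members. Of 30 other target genes, all measured, 26 were higher on VPA than on control arrays (86.7%, against 56.8% of all genes, median 0.15). For 11 of them every VPA array was above both control arrays (5.57% of all genes). At an unadjusted p below 0.05 by limma, 5 were higher (1.23% of all genes) and 0 lower (0.64%). Within the first set 21 of the 30 were higher (47.8% of all genes, median 0.05) and within the second 25 (44.3%, median 0.28). The smallest p belonged to Lcn2, the secreted siderophore-binding protein of injured tubules, at 9.07, 8.76 and 9.27 on VPA arrays, 8.19, 6.92 and 8.49 on vehicle arrays and 6.42 and 6.90 on control arrays. The 3 groups did not overlap for it, and the VPA change from control was 2.37 (SE 0.44, adjusted p = 1.00 by limma), with 2.49 and 2.37 within the sets. Between VPA and vehicle 20 of the 30 were higher (51.3% of all genes, median 0.08), with 18 and 20 within the sets. They were led by Vcam1, the adhesion molecule that binds leukocyte integrins. Vcam1 was at 7.54, 6.99 and 7.00 on VPA arrays, 6.14, 5.65 and 6.68 on vehicle arrays and 6.31 and 6.06 on control arrays, a drug change of 1.02 (SE 0.27) with every VPA array above all others. Between vehicle and control 20 of 30 were higher (55.6% of all genes, median 0.07), with 14 and 22 within the sets. The smallest p there was for Nos2, the inducible nitric oxide synthase (0.40, SE 0.13), a dim probe set. The lower genes with the smallest p were Sod2 (-0.05, SE 0.39) for VPA against control, Junb (-0.44, SE 0.25) for VPA against vehicle and Saa3 (-0.09, SE 0.14) for vehicle against control.

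Of 25 receptors upstream of NF-kB 24 were measured. On VPA arrays 19 were higher than on control arrays (56.8% of all genes, median 0.09). Against vehicle arrays 13 were higher with VPA (51.3%, median 0.04). On vehicle arrays 17 were higher than on control arrays (55.6%, median 0.08). Within the first set these counts were 11, 14 and 11 of 24, and within the second 21, 15 and 19. Tlr2, which senses bacterial lipoproteins and products of damaged tissue, was at 5.26, 4.90 and 5.20 on VPA arrays, 4.74, 4.52 and 4.76 on vehicle arrays and 4.75 and 4.48 on control arrays, so that its VPA arrays stood above all others. Tnfrsf1a, the main TNF receptor, was at 8.40, 8.31 and 8.25 on VPA arrays, 7.88, 7.94 and 7.99 on vehicle arrays and 8.16 and 7.88 on control arrays, a drug change of 0.39 (SE 0.12) with no overlap. Cd40 led the vehicle comparison (0.30, SE 0.15). The lower receptors with the smallest p were Il6ra for VPA against control (-0.52, SE 0.51), Tlr5 for VPA against vehicle (-0.22, SE 0.14) and Csf1r for vehicle against control (-0.29, SE 0.34).

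Of 30 further adaptors and enzymes 27 were measured, with 24 higher for VPA against control (56.8% of all genes, median 0.06). For VPA against vehicle 21 were higher (51.3%, median 0.03) and for vehicle against control 17 (55.6%, median 0.03). Within the first and the second set 15 and 12 of 27 were higher for VPA against control (47.8% and 44.3% of all genes), 17 and 17 for VPA against vehicle, and 15 and 10 for vehicle against control (medians 0.01 and -0.06). Map3k8, the kinase Tpl2, had the smallest p for VPA against control (0.41, SE 0.13), Nfkbid, a nuclear IkB protein, for VPA against vehicle (0.39, SE 0.17) and Tnip2, another partner of A20, for vehicle against control (0.34, SE 0.17). The lower genes with the smallest p were the ribonuclease gene Zc3h12a for both comparisons with control (-0.14 with VPA and -0.15 with vehicle) and Tank, an adaptor of TRAF proteins, for the drug (-0.09). None of the measured genes of these 3 lists passed over all genes by limma in any comparison.

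Markers of other cell types and the sex-linked signal also differed between the arrays, and in bulk tissue more cells of a type and more RNA per cell cannot be told apart. Of the 12 macrophage and myeloid markers 11 were higher on VPA than on vehicle arrays, with a mean level of 5.21, 4.87 and 5.88 on VPA arrays, 4.74, 4.69 and 5.35 on vehicle arrays and 5.06 and 5.02 on control arrays. Of these markers 7, Cd68 and Csf1r among them, exceeded the median gene mean and 5 (Adgre1, Cd14, C1qc, Itgam and Tyrobp) did not. In the second set all 12 were higher with VPA than in control (median 0.83). In the first set 6 of 12 were (median -0.04), and 22 of the 31 NF-kB members were higher there (median 0.16). For VPA against vehicle, 11 of 12 markers were higher in each set (medians 0.34 and 0.60) and 10 in both. Of the members, 24 and 21 of 31 were higher within the sets for that comparison, and 17 in both. Mesangial and smooth muscle markers were higher on vehicle than on control arrays for 8 of 8 (median 0.40), with 4 of 8 in the first set (0.08) and 8 of 8 in the second (0.78). They were higher on VPA than on vehicle arrays for 1 of 8 (median -0.30), with 2 and 1 of 8 within the sets. Endothelial markers were higher on vehicle than on control arrays for 8 of 10 (median 0.30), but for 2 of 10 in the first set (-0.11) and 10 of 10 in the second (0.94). They were higher on VPA than on vehicle arrays for 1 of 10 (median -0.34), with 3 and 1 of 10 within the sets. Podocyte markers were higher on VPA than on control arrays for 0 of 7 over all arrays (median -0.39), but for 5 of 7 in the first set (0.10) and 0 of 7 in the second (-0.69). They were higher on VPA than on vehicle arrays for 1 of 7 (median -0.32), with 0 and 1 of 7 within the sets. The 8 measured lymphocyte markers and the 7 neutrophil markers were all at or below the median gene mean. The part of these cell types in the members' values was not tested. The Y-linked mean was higher in the first-set arrays of the Tln1 line than on control 1, and with that mean as a covariate the median change of the members was 0.30 for VPA against control, 0.08 for VPA against vehicle and 0.16 for vehicle against control.

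**Figure D5:**
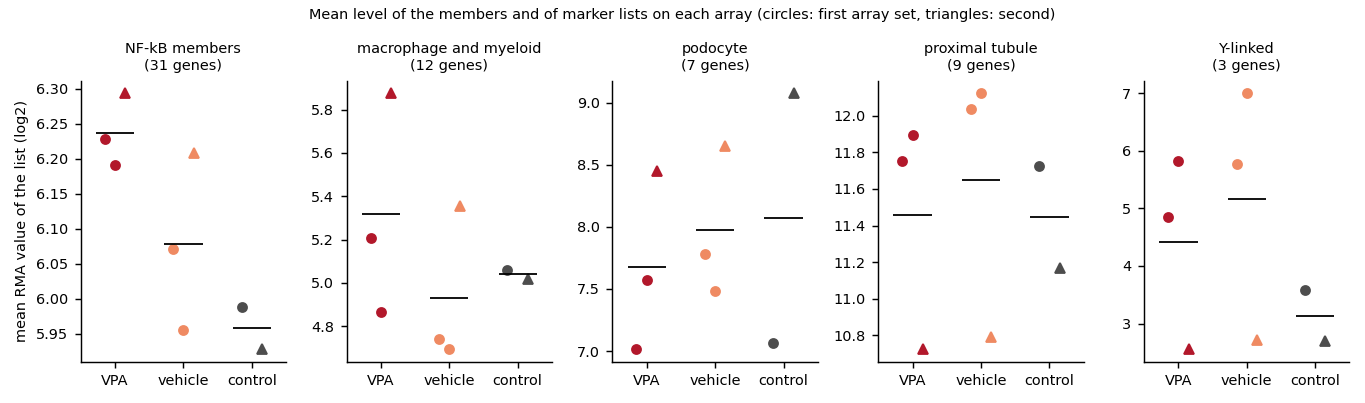
Mean RMA value (log2, vertical axis) of the 31 NF-kB members and of 4 marker lists on each array, by group, with circles for the first array set, triangles for the second, lines for group means and a vertical scale that differs between panels. The members' mean is higher on all 3 VPA arrays than on both control arrays, whereas podocyte, tubule and Y-linked genes part the array sets.

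The members also differed between the array sets, as a description only, since the sets came from the same values. Averaged over the 3 groups, the second set was higher for Tnfaip2 (0.80), Nfkbia (0.66), Il1b (0.65), Nfkbie (0.60) and Traf1 (0.52). It was lower for Irak2 (-0.59), Bcl3 (-0.56), Map3k14 (-0.44), Il1a (-0.38) and Icam1 (-0.36). Birc3 (-0.01), Tnfaip3 (0.02) and Tnip1 (0.08) hardly differed between the sets.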

How the data were processed

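Total RNA of isolated glomeruli was hybridised as biotinylated cRNA to Affymetrix arrays, 1 per sample, per the labels' protocols. The submitters' processing notes name RMA and limma, and the deposited values are on a log2 scale, as RMA gives them. Versions, the genome build and which arrays were normalised together are not stated there. The table holds 41345 probe sets, from 1.49 to 13.9, so genes are not centred, higher values were read as more RNA, and the number of arrays limits the precision. Array medians were 4.26, 4.29 and 4.14 (Tln1 VPA 1 to 3), 4.26, 4.26 and 4.15 (Tln1 vehicle 1 to 3) and 4.23 and 4.14 (control 1 and 2). In the platform annotation 23521 probe sets had 1 symbol, 1814 several and 16010 none. Of those with 1 symbol, 23328 matched the RefSeq gene table by Entrez identifier, 0 symbols changed, and the brightest probe set per symbol was kept (22180 genes).

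All 3 comparisons came from 1 limma 3.58.1 fit in R 4.3.3 (lmFit and eBayes, group only, two-sided). A call needed a Benjamini-Hochberg adjusted p below 0.05 over all genes. The fit was tested on simulated data, with spread independent between arrays. A log2 change of 1 was called for 48% of 100 changed genes for Tln1 vehicle against control. It was called for 60% for Tln1 VPA against Tln1 vehicle and 49% for Tln1 VPA against control. A change of 2 was called for 91%, 96% and 92% in the same order, and 10, 14 and 11 unchanged genes were called. The largest member change in the main fit was 0.98. Array sets are the 2 clusters by correlation (average linkage). Every measured member is named. In each comparison the 6 with the smallest p, and Nfkbia and Tnfaip3, were recomputed under every alternative, and per pathway list the gene with the smallest p in each direction is named. Other members are described by their levels. The members and lists were chosen with earlier results of these data known. Same-numbered Tln1 VPA and Tln1 vehicle arrays shared their deviations from the means of their groups (correlations of 0.570, 0.609 and 0.787 over the genes). The labels state no pairing, and these numbers largely follow the array sets. Number 1 of control gave 0.593 with Tln1 VPA and 0.609 with Tln1 vehicle, but number 2 gave -0.496 and -0.591, so the control numbers were not taken as pairs. Figures were drawn with matplotlib 3.10.9.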

Additional observations from a re-analysis of the deposited data

How the results depend on the processing

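No member was called under any of the 16 alternatives run for each comparison with control or the 17 run for Tln1 VPA against Tln1 vehicle (the smallest adjusted p among the members recomputed was 0.191). The members' median change ranged from 0.15 to 0.30 for Tln1 VPA against control, from 0.08 to 0.26 for Tln1 VPA against Tln1 vehicle and from 0.00 (first array set alone) to 0.17 for Tln1 vehicle against control. With the replicate block, 1 gene was called for Tln1 VPA against control and 4 for Tln1 vehicle against control, none of them a member, and with the Y-linked mean as a covariate, added after the data had been seen, 21 for Tln1 VPA against control. The replicate block changed no call of a member. Of the 22 single changes of members recomputed, the sign turned for 1, Nfkbia in Tln1 vehicle against control: -0.011 with arrays centred on their median and -0.22 with the replicate block, and it ranged from -0.25 to 0.27 when single arrays were left out. It was -0.0033 in the first array set alone, also added after the data had been seen. The cause was not tested.

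The count of members with no overlap and higher values depends on how many arrays are compared. Leaving out single arrays gave 4 to 13 for Tln1 vehicle against control and 6 to 13 for Tln1 VPA against Tln1 vehicle, and the first set alone gave 9, 18 and, for Tln1 VPA against control, 19. The share of all genes changed too. For Tln1 vehicle against control it was 26.8% without control 1 (13 members), 16.1% without control 2 (7) and 7.92% without vehicle 2 (8). Without vehicle 3 it was 20.4%, and the members' share was no higher (6 members, 19.4%). Members lower without overlap numbered 3 without control 1, 5 without control 2 and 3 without vehicle 3. The shares of all genes lower were 13.1%, 27.9% and 11.4%. For Tln1 VPA against Tln1 vehicle the share of all genes higher was 7.93% without vehicle 3 (13 members), 4.14% without VPA 2 (11) and 11.4% without VPA 3 (11). For Tln1 VPA against control that share was 30.3% without control 1 (18 members) and 17.4% without control 2 (17). It was 7.35% without VPA 1 (13), 8.49% without VPA 2 (14) and 20.8% without VPA 3 (16). Centring gave 10 members for Tln1 VPA against control (4.18% of all genes higher and 7.71% lower without overlap). Quantile normalization gave 11 (5.09% and 6.51%). For Tln1 vehicle against control centring gave 3 (3.44% and 7.15%) and quantile normalization 4 (4.09% and 6.19%). For Tln1 VPA against Tln1 vehicle they gave 6 (2.18% and 2.46%) and 5 (2.35% and 2.29%). Testing only genes above the median gene mean left 24 members. The files used here hold no scanner values, so background correction could not be varied.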
